A study of Mus musculus with 8 samples.

Results

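Genes that move iron and heme into, within and out of cells were described in brown adipose tissue (BAT) of mice with and without adipose triglyceride lipase (ATGL, encoded by Pnpla2) in their thermogenic adipocytes. There were 10 such genes, namely Tfrc, Slc11a2, Slc11a1, Fth1, Ftl1, Slc40a1, Cp, Hmox1, Hp and Cd163, and they were chosen by name for their roles, with no measured value in the rule but with earlier results of these data known, and all 10 were found among the 31053 genes of the count table. BAT was taken from 4 WT mice and 4 ATGLKO mice, all C57BL6/J males aged 10 weeks per the labels (the text of the study gives a younger age), and sequenced as bulk mRNA. The ATGLKO mice, also written Ucp1Δ/Δ, carried floxed Pnpla2 alleles and a Cre recombinase under the Ucp1 promoter, so that the deletion was directed at UCP1-expressing cells and other cells of the tissue were not targeted. The libraries held 2017697 to 3115956 counts in WT and 2240612 to 2941799 in ATGLKO mice, so that 3 counts correspond to 0.933 to 1.53 CPM (counts scaled to library size, after TMM).

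Cells take up transferrin-bound iron through the transferrin receptor, carry it out of the endosome, store the surplus in ferritin shells built of heavy and light chains, and release it through ferroportin with the help of a copper ferroxidase. Heme and hemoglobin are another source, captured by scavenger proteins and opened by heme oxygenase, and macrophages that clear red cells rely on this route. BAT is rich in mitochondria, whose respiratory chain needs heme and iron-sulfur clusters.

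Part of this system is controlled after transcription. Iron regulatory proteins bind a hairpin, the iron-responsive element (IRE), in the mRNA. When bound, a hairpin in the 5′ UTR holds back translation and hairpins in the 3′ UTR of Tfrc protect the mRNA from decay. The elements are shown because transcripts of 4 of the 10 genes matched the search described here and because a count of mRNA does not show translation. They were found by searching the GENCODE M21 transcripts (GRCm38/mm10) for the IRE letters, a C, any 5 bases and then CAGTGN, on the sense strand, with 5 paired bases on each side of the loop (G-U pairs included), and capitals mark the 6 bases of the loop.
Fth1 5′ UTR, chr19:9982733-9982759, plus strand: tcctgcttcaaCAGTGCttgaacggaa
Ftl1 5′ UTR, chr7:45459780-45459806, minus strand: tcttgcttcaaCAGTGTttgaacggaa
Slc40a1 5′ UTR, chr1:45925466-45925492, minus strand: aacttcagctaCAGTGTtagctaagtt
Tfrc 3′ UTR, chr16:32631220-32631246, plus strand: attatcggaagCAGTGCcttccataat
Tfrc 3′ UTR, chr16:32631599-32631625, plus strand: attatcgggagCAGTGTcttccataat
Tfrc 3′ UTR, chr16:32631664-32631690, plus strand: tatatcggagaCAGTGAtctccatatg
Tfrc 3′ UTR, chr16:32631711-32631737, plus strand: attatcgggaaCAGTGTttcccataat

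The search was strict, so elements with an unpaired base in the upper stem, such as the one known in the 3′ UTR of some Slc11a2 transcripts, are not found by it. The pattern was rare. It stood in the 5′ UTR of 31 of 20597 genes (0.151%) and in the 3′ UTR of 129 of 20979 genes (0.615%), against 3 and 1 of the 10 genes described here. The 10 genes were chosen for roles in iron handling, and the letters searched are those of an element of iron control. The higher share among them is therefore not a finding about the set. The Slc40a1 element lay in 1 of its 4 coding transcripts with a 5′ UTR, the Ftl1 element in 1 of 2 and the Fth1 element in 4 of 5, so that which transcripts the counted reads came from matters for these genes and was not measured. A match to these letters is a description of the transcript and not evidence of binding.

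The genotype labels were first checked against the deleted gene. Pnpla2 had 5564, 6030, 8867 and 6222 counts in WT mice 1 to 4 and 1452, 1439, 964 and 1236 in ATGLKO mice 1 to 4. Its level was 2913 ± 191 CPM in WT and 474 ± 59.2 CPM in ATGLKO (mean ± SD, n = 4), a log2 fold change (log2FC, ATGLKO minus WT) of -2.62 with a standard error (SE) of 0.17 and an adjusted p of 1.97e-07 by the quasi-likelihood test of edgeR, adjusted by Benjamini-Hochberg over all genes tested, the test behind every adjusted p here unless another is named. Of 8930 genes tested, 1191 were called higher (13.3%) and 681 lower (7.63%) in ATGLKO at an adjusted p under 0.05. With libraries scaled by total counts alone, which moved the median log2FC of all genes to 0.13, the split was 1478 higher and 404 lower.

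The make-up of the tissue also differed between genotypes, and in bulk RNA more cells of a type and more RNA per cell cannot be told apart. Summed over 10 macrophage markers, the level was 72.8 to 110.2 CPM in WT and 724 to 1190 CPM in ATGLKO mice, 9.54-fold higher, with 9 of the 9 markers tested called higher, for example Cd68 (log2FC 4.64) and Lyz2 (3.67), and none of the 10 at 0 throughout. Of these 9 markers, 7 reached the minimum count in all 4 ATGLKO mice but not in all 4 WT mice, so their being tested leaned on the genotype in which they were abundant, and 3 were called higher when at least 10 counts in every mouse were asked for. Summed fibroblast markers were 3.37-fold higher, with 5 of 5 called higher, for example Col3a1 (2.74) and Col1a1 (2.38). Summed brown adipocyte markers ranged from 13700 to 23400 CPM in WT and from 10000 to 14900 CPM in ATGLKO, with 4 of 9 called lower (Elovl3, Cidea, Plin1 and Adipoq). For the macrophage, fibroblast and endothelial sums the genotypes did not overlap (two-sided exact permutation p = 0.0286, or 0.0763 adjusted over the 8 marker lists). The labels name the sample both as brown adipose tissue and as a stromal vascular fraction, a preparation without adipocytes. Adipocyte transcripts were abundant in every mouse, with Fabp4 at 6531 ± 175 CPM and Ucp1 at 2719 ± 1281 CPM in WT.

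Of the 9 iron and heme genes tested, 4 were called higher in ATGLKO (44.4%, against 13.3% of all genes tested) and 0 were called lower (against 7.63%), and their median log2FC was 0.88 against -0.01 over all genes tested. The genes called were Ftl1, Slc40a1, Cp and Hmox1. Macrophage and fibroblast markers were higher in the same mice, and their part in these calls was not tested. The remaining gene, Slc11a1, had too few counts to be tested. The levels of all 10 genes in each mouse overlapped between genotypes for 6 genes and lay higher in every ATGLKO mouse than in any WT mouse for 4 (Ftl1, Slc40a1, Cp and Slc11a1). Over all genes tested, 14.4% were higher without overlap and 9.37% lower without overlap. Slc11a1 is among the 4 but was not tested, so these shares do not cover genes as low as it. Tfrc, Hmox1 and Cd163 reached the minimum count in all 4 ATGLKO mice but in 3 of 4 WT mice, so the number of genes tested itself leaned on the genotype in which these were more abundant.

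**Figure D1:**
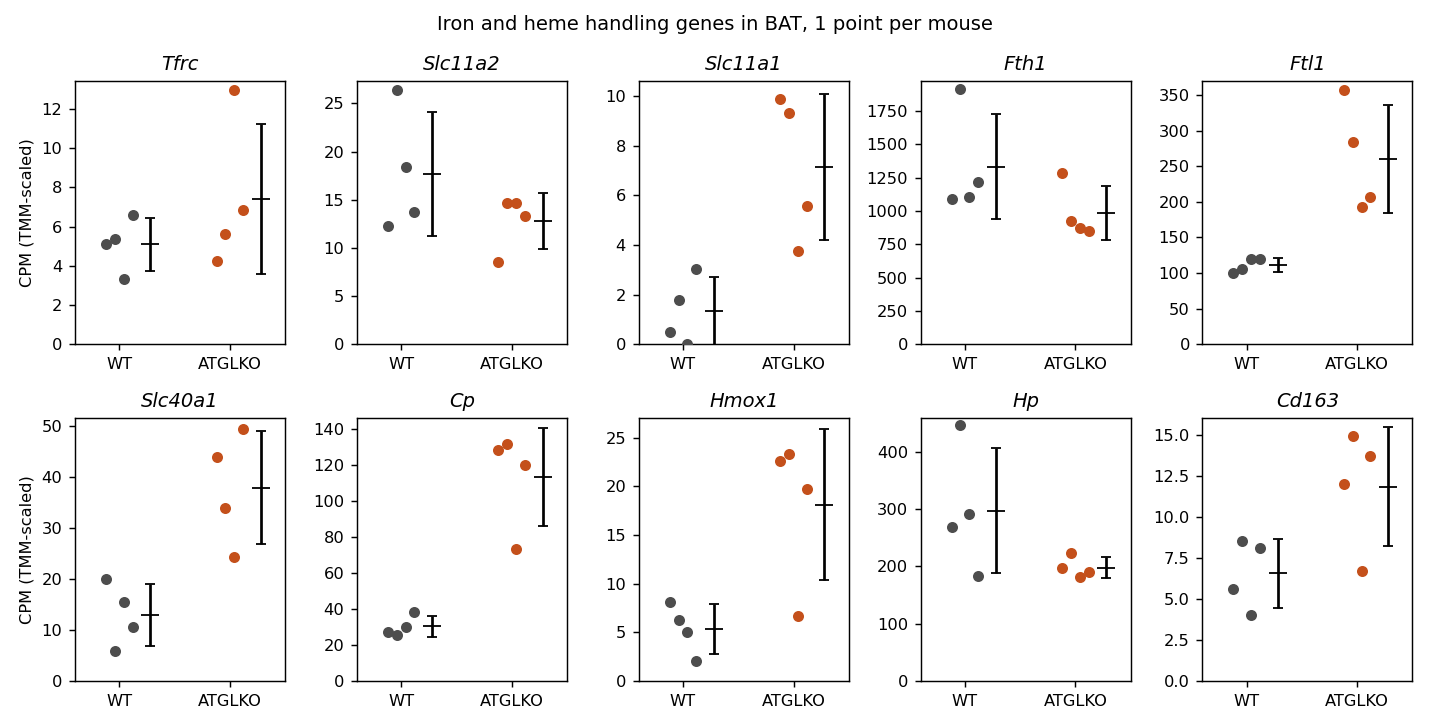
Level of each of the 10 iron and heme handling genes in BAT, in CPM on a linear axis from 0, with 1 point for each of 4 WT (grey) and 4 ATGLKO (orange) mice and the mean ± SD beside them. All 4 ATGLKO points lie above all 4 WT points for Slc11a1, Ftl1, Slc40a1 and Cp, and the genotypes overlap for the other 6 genes.

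Positions of the genes are those of GENCODE M21 (GRCm38/mm10). Of the genes of iron uptake and transport among the 10, none passed the main test. Tfrc (ENSMUSG00000022797, chr16:32608920-32632794, plus strand), the receptor that brings in transferrin-bound iron, was measured at 5.10, 5.38, 3.34 and 6.59 CPM in WT mice 1 to 4 and at 4.25, 5.6, 13 and 6.87 CPM in ATGLKO mice 1 to 4. ATGLKO mouse 3 stood above the rest, and the other 7 mice overlapped. The log2FC of Tfrc was 0.54 (SE 0.38, 95% interval -0.27 to 1.35, adjusted p = 0.355), so that a rise of more than 2-fold and a fall both lie within the interval. Without ATGLKO mouse 3 it was 0.16.

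Slc11a2 (DMT1, ENSMUSG00000023030, chr15:100387898-100425072, minus strand) is the proton-coupled carrier that takes ferrous iron out of the endosome. It was at 12.2, 26.4, 18.4 and 13.7 CPM in WT and at 8.49, 14.6, 14.6 and 13.3 CPM in ATGLKO mice. The highest mouse was WT and the lowest ATGLKO, but the groups overlapped. The log2FC was -0.48 (SE 0.27, 95% interval -1.06 to 0.10, adjusted p = 0.24). Exons of Slc11a2 share 402 bases with exons of Gm5475 on the opposite strand, and whether the counting used strand is not given in the sources used here.

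Slc11a1 (NRAMP1, ENSMUSG00000026177, chr1:74375195-74386062, plus strand), the related metal carrier of the phagosome of macrophages, was the least abundant of the 10 in counts. WT mice 1 to 4 had 1, 4, 0 and 6 counts and ATGLKO mice 1 to 4 had 28, 30, 9 and 13. Every ATGLKO mouse was above every WT mouse (two-sided exact permutation test on CPM, p = 0.0286, the smallest that 4 mice against 4 can give). The 80 counts in ATGLKO against 11 in WT amount to a ratio of 6.19 after scaling (95% interval 3.28 to 12.9, which covers counting error only). It failed the minimum count of the main test because 3 ATGLKO mice and 0 WT mice reached it, where 4 mice were needed. When every gene with at least 1 count in any mouse was tested, its log2FC was 2.49 with an adjusted p of 2.62e-05, and DESeq2's Wald test gave 2.48 with an adjusted p of 0.00334. Both settings lowered adjusted p for some other genes too. For Cp it went from 1.5e-05 to 1.07e-14 in the first and 1.02e-13 in the second, at a like log2FC. For Cd163 the second raised it, from 0.0642 to 0.126. Adjusted p from these settings is therefore not comparable with that of the main test. In edgeR fits that left out 1 mouse and kept Slc11a1, the adjusted p ran from 0.0025 to 0.0238. Slc11a1 entered those fits only through the ATGLKO mice in which it was abundant, so they add no separate support.

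Of the ferritin chains, the light chain was higher in ATGLKO and the heavy chain was not called. Ftl1 (ENSMUSG00000050708, chr7:45457944-45459884, minus strand), the light chain, which helps form the iron core, was at 99.4, 106, 120 and 120 CPM in WT mice 1 to 4 and at 357, 284, 193 and 207 CPM in ATGLKO mice 1 to 4. All ATGLKO mice were above all WT mice, and ATGLKO mice 1 and 2 were above mice 3 and 4. The log2FC was 1.23 (SE 0.20, 95% interval 0.79 to 1.66, adjusted p = 0.000439), a 2.34-fold rise.

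Fth1 (ENSMUSG00000024661, chr19:9980598-9985098, plus strand), the heavy chain, which carries the ferroxidase site that oxidises iron for storage, was at 1091, 1919, 1108 and 1218 CPM in WT and at 1282, 925, 873 and 852 CPM in ATGLKO mice. ATGLKO mice 2, 3 and 4 lay below all WT mice and ATGLKO mouse 1 lay among them. The log2FC was -0.44 (SE 0.21, 95% interval -0.89 to 0.01, adjusted p = 0.16), and without WT mouse 2, the highest, it was -0.22. Both ferritin genes have processed copies elsewhere in the genome, and reads shared with such copies may have been lost or split. Among relatives whose symbols start with Fth or Ftl, Ftl1-ps1 had 2 counts over all mice and the others had 0. Copies under other symbols were not looked up.

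The balance of the chains was therefore taken within each mouse, which does not depend on how libraries are scaled. There were 11, 18.2, 9.25 and 10.2 Fth1 counts per Ftl1 count in WT mice 1 to 4 and 3.59, 3.26, 4.53 and 4.12 in ATGLKO mice 1 to 4. The counts are not per length, so only the change between genotypes can be read from them. The log2 ratio was 3.55 ± 0.43 in WT and 1.94 ± 0.21 in ATGLKO (n = 4 each), a difference of -1.6 or 0.329-fold, with no overlap (two-sided exact permutation p = 0.0286). It ranged from -1.72 to -1.39 when each mouse was left out in turn.

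Both genes of iron export among the 10 rose. Slc40a1 (ENSMUSG00000025993, chr1:45908068-45926523, minus strand) encodes ferroportin, the exporter of ferrous iron, and was at 19.9, 5.82, 15.4 and 10.6 CPM in WT mice 1 to 4 and at 43.9, 33.9, 24.2 and 49.4 CPM in ATGLKO mice 1 to 4. The WT mice spread widely, and still the lowest ATGLKO mouse was above the highest WT mouse. The log2FC was 1.54 (SE 0.31, adjusted p = 0.00193), a 2.92-fold rise.

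Cp (ENSMUSG00000003617, chr3:19957054-20009145, plus strand) encodes ceruloplasmin, the copper ferroxidase that oxidises exported iron so that transferrin can bind it. It was at 27.0, 25.5, 30.1 and 38.5 CPM in WT and at 128, 132, 73.5 and 120 CPM in ATGLKO mice. ATGLKO mice 1, 2 and 4 lay close together and mouse 3 was lower, yet still above all WT mice. The log2FC of 1.91 (SE 0.21, adjusted p = 1.5e-05), a 3.75-fold rise, had the smallest adjusted p of the 9 genes tested. Cp shares 108 exonic bases with Hps3 on the opposite strand, so a few of its reads cannot be assigned with certainty without strand.

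The balance of uptake and export was taken in the same way. The log2 ratio of Tfrc to Slc40a1 counts was -1.21 ± 0.98 in WT and -2.40 ± 1.05 in ATGLKO (n = 4 each). The difference of -1.19 was within the spread between mice, whose values overlapped (p = 0.143, two-sided exact permutation test).

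**Figure D2:**
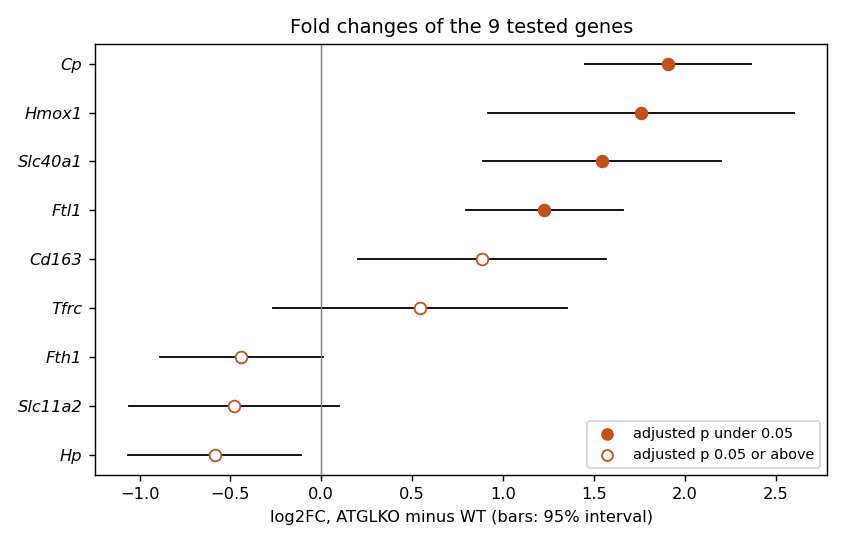
Log2FC (ATGLKO minus WT) of the 9 genes tested, with 95% intervals as bars and filled points for an adjusted p under 0.05 by edgeR's quasi-likelihood test. Cp, Hmox1, Slc40a1 and Ftl1 are filled and lie at 1.91, 1.76, 1.54 and 1.23, and the intervals of Tfrc, Fth1 and Slc11a2 include 0.

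Among the 10 genes, those that deal with heme and hemoglobin are Hmox1, Hp and Cd163, and of these Hmox1 alone was called. Hmox1 (ENSMUSG00000005413, chr8:75093621-75100589, plus strand), the inducible heme oxygenase that opens heme to biliverdin, carbon monoxide and ferrous iron, was at 8.16, 6.27, 5.01 and 2.03 CPM in WT mice 1 to 4 and at 22.6, 23.3, 6.69 and 19.7 CPM in ATGLKO mice 1 to 4. ATGLKO mice 1, 2 and 4 were well above all WT mice and ATGLKO mouse 3 lay within the WT range. The log2FC was 1.76 (SE 0.40, adjusted p = 0.00467), a 3.39-fold rise, and was 2.04 without ATGLKO mouse 3.

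Hp (ENSMUSG00000031722, chr8:109575128-109579172, minus strand), haptoglobin, which binds free hemoglobin in plasma, was at 268, 446, 291 and 183 CPM in WT and at 197, 223, 182 and 189 CPM in ATGLKO mice. The ATGLKO mice were close together, whereas the WT mice ranged more widely and WT mouse 4 lay among the ATGLKO values. The log2FC was -0.59 (SE 0.22, 95% interval -1.06 to -0.11, adjusted p = 0.0758). It passed the threshold without WT mouse 4 (log2FC -0.77, adjusted p = 0.00903) and in 2 of the 10 other settings tried.

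Cd163 (ENSMUSG00000008845, chr6:124304656-124330527, plus strand), the macrophage receptor that takes up the complex of haptoglobin and hemoglobin, was at 5.61, 8.51, 4.01 and 8.11 CPM in WT and at 12, 14.9, 6.69 and 13.7 CPM in ATGLKO mice. As with Hmox1, mouse 3 was the ATGLKO mouse within the WT range. The log2FC was 0.88 (SE 0.32, 95% interval 0.20 to 1.57, adjusted p = 0.0642). It passed without ATGLKO mouse 3 (1.08, adjusted p = 0.021), without WT mouse 2 (1.04, adjusted p = 0.0439) and in 5 of the 10 other settings.

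ATGLKO mouse 3 was the lowest ATGLKO mouse for 7 of the 10 genes (Slc11a1, Ftl1, Slc40a1, Cp, Hmox1, Hp and Cd163) and the highest for Tfrc. For Slc11a2 it was level with ATGLKO mouse 2, both at 14.6 CPM. The summed macrophage markers of ATGLKO mouse 3, 724 CPM, and its summed fibroblast markers, 860 CPM, were also the lowest among ATGLKO mice. ATGLKO mouse 4 was close to it in macrophage markers, at 736 CPM, but not in fibroblast markers, at 1233 CPM. Mouse 4 had 19.7 CPM of Hmox1 and 49.4 CPM of Slc40a1, against 6.69 and 24.2 CPM in mouse 3. For Ftl1 these 2 mice were closer, at 207 and 193 CPM. The part of these markers in the values was not tested.

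Cd163, Slc40a1, Hmox1 and Slc11a1 are known products of macrophages, and their counts were set against the summed macrophage markers of the same mouse. For Cd163 the log2 ratio to these markers was -3.80 ± 0.31 in WT and -6.21 ± 0.41 in ATGLKO (n = 4 each), a difference of -2.41 without overlap. For Slc40a1 the difference was -1.62 and for Hmox1 -1.53, both with overlap. For Slc11a1 it was -0.40, with overlap and with WT ratios spread from -8.77 to -4.79, and it moved to -1.19 (adjusted p = 0.0571) with 2 instead of 0.5 added to each count, to -1.14 without WT mouse 3 and to 0.19 without WT mouse 4. Set against the marker sum, Cd163 was thus lower in every ATGLKO mouse than in any WT mouse. The sum rose 9.54-fold, more than Cd163 (1.84-fold), Slc40a1 (2.92-fold) and Hmox1 (3.39-fold), so their lower ratios follow from levels already given. Lyz2 made up 437 of the mean sum of 873 CPM in ATGLKO mice. The log2FC of the markers tested ran from 1.97 (Mrc1) to 4.64 (Cd68), so the ratios depend on the markers chosen. The ratio of Slc11a1 to the marker sum depended on the count added and on single WT mice, and no direction is read from it. The two-sided exact permutation p-values were 0.0286, 0.0571, 0.0857 and 0.686 in this order, and 0.114, 0.114, 0.114 and 0.686 after Benjamini-Hochberg adjustment over the 4 genes. The smallest p that 4 mice against 4 can give is 0.0286, so a single gene of the 4 cannot pass 0.05 after adjustment.

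**Figure D3:**
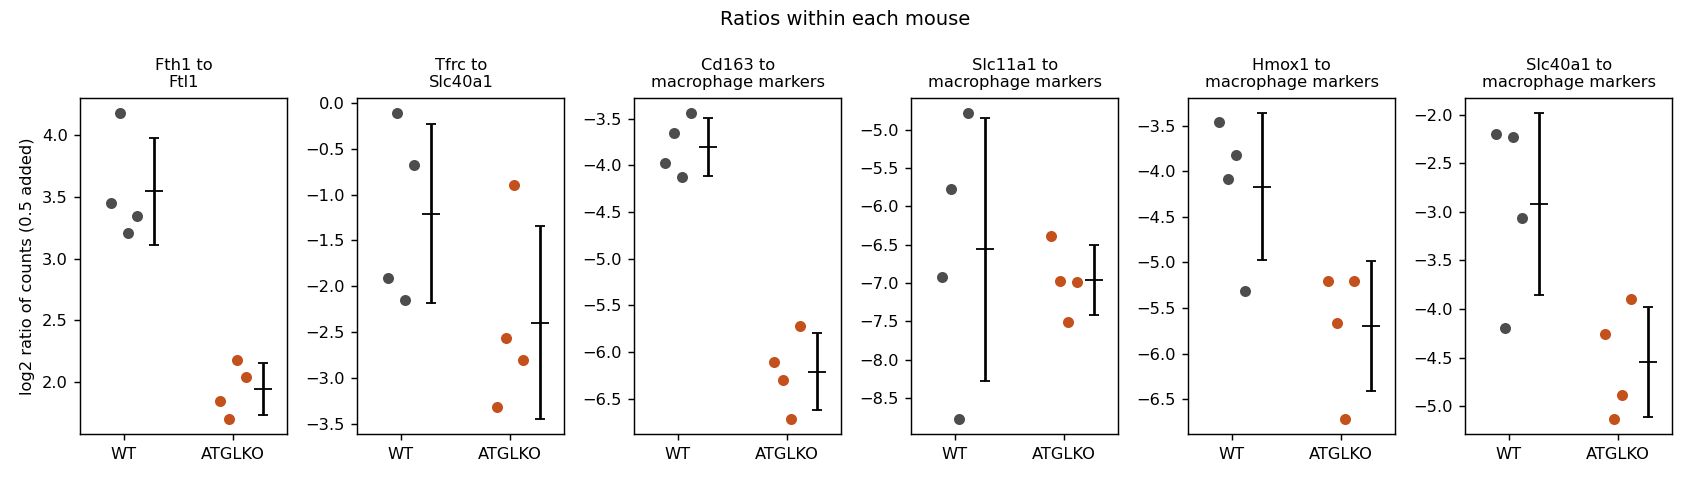
Log2 ratios of counts within each mouse (0.5 added to each count), 1 point per mouse, WT grey and ATGLKO orange, with the mean ± SD. The ratio of Fth1 to Ftl1 and that of Cd163 to the summed macrophage markers separate the genotypes, at differences of -1.6 and -2.41, and the other 4 ratios overlap.

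Levels of blood and liver transcripts were set beside the heme genes because red cells and hepatocytes hold much of the heme and haptoglobin of the body. Summed erythroid markers, almost all of them globins, ranged from 3550 to 6950 CPM in WT and from 2760 to 6740 CPM in ATGLKO, and 0 of the 4 tested were called by edgeR. Summed hepatocyte markers were at most 1.25 CPM in any mouse, at the level of about 3 counts, whereas Hp was at 182 CPM or more in every mouse. Summed neutrophil markers were at most 7.62 CPM. Skeletal muscle markers varied widely within both genotypes (17 to 1290 CPM in WT, 55.6 to 1830 CPM in ATGLKO). Without the mouse of each genotype with most of them, Ftl1, Slc40a1, Cp and Hmox1 were still called. Endothelial markers were 1.31-fold higher in sum, with 0 of 4 called by edgeR.

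The wider pathway was described with 83 further genes in 8 lists. Of these, 63 were tested, 8 were called higher and 8 lower (12.7% each, against 13.3% and 7.63% of all genes tested), and the median log2FC was -0.18. Scaling by total counts alone gave 9 higher and 4 lower. In all, 1 of the 8 called higher (Steap3) passed the filter on low counts through the ATGLKO mice alone.

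**Figure D4:**
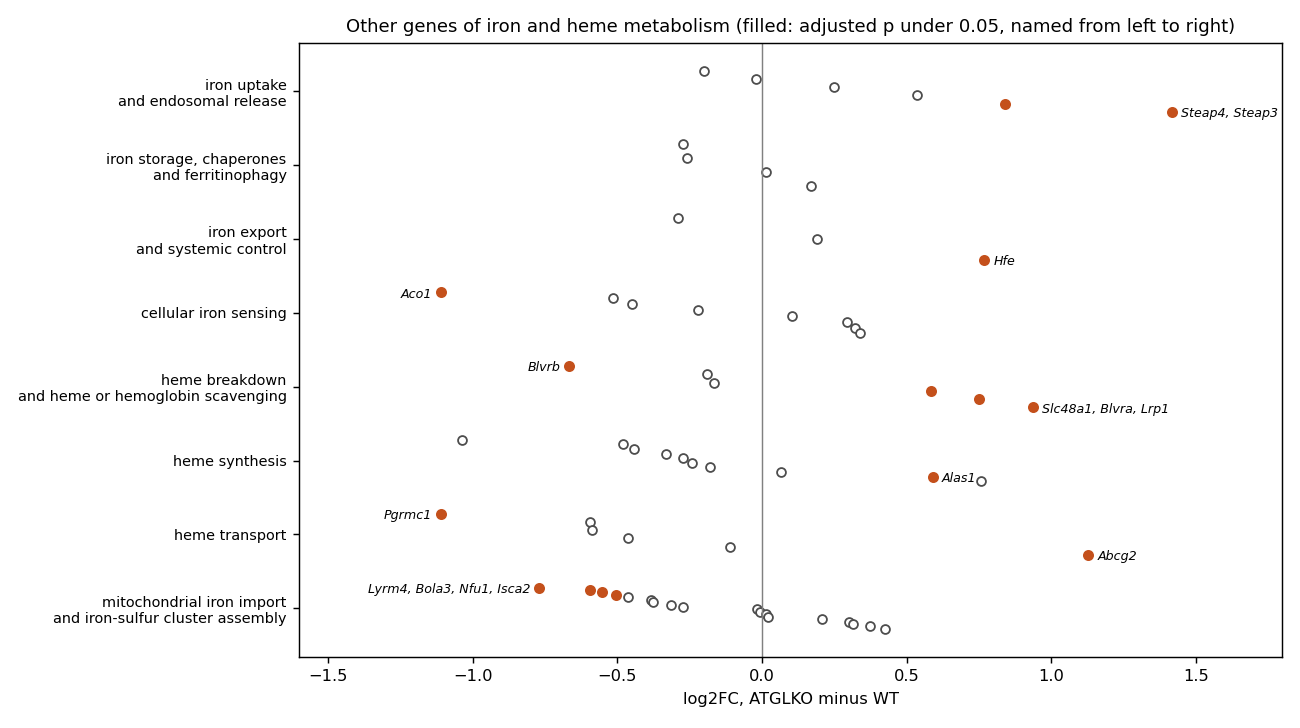
Log2FC (ATGLKO minus WT) of 61 of the 63 genes tested in 8 lists of iron and heme metabolism, 1 point per gene, filled for an adjusted p under 0.05 by edgeR's quasi-likelihood test and named from left to right on each side of 0. The 8 genes called higher and the 7 shown that were called lower lie between -1.11 and 1.42, and the 4 called in mitochondrial iron and iron-sulfur cluster assembly are all lower.

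In uptake and endosomal release, 2 of 6 genes tested were higher (33.3%, against 13.3% of all genes tested) and 0 lower. The number higher was 0 without WT mouse 3 or without ATGLKO mouse 4, and 1 without WT mouse 1 or 4 or ATGLKO mouse 2 or 3. Steap3 and Steap4 are metalloreductases that reduce ferric iron. Steap3 was at 2.55, 2.69, 2 and 3.04 CPM in WT and at 4.60, 4.98, 6.69 and 11.6 CPM in ATGLKO mice, a log2FC of 1.42 (SE 0.39, adjusted p = 0.0174). No WT mouse and all 4 ATGLKO mice reached the minimum count for Steap3, so it was tested only because of the genotype in which it was higher. Steap4 had a log2FC of 0.84 (SE 0.27, adjusted p = 0.0345), and all its ATGLKO mice were above all WT mice. These are low counts, 5 to 38 per mouse.

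In storage, chaperones and ferritinophagy, 0 of 4 genes tested were called (13.3% of all genes tested were called higher and 7.63% lower). The most abundant, Pcbp2, a chaperone that hands iron to ferritin, had a log2FC of -0.26 (95% interval -0.59 to 0.07, adjusted p = 0.275). Ncoa4, the receptor that sends ferritin to the lysosome, was too low to be tested.

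In export and systemic control, 1 of 3 genes tested was higher (33.3%, against 13.3% of all genes tested) and 0 lower. Hfe, which binds the transferrin receptor and is mutated in hemochromatosis, was at 9.69, 12.5, 15.0 and 12.7 CPM in WT and at 30.1, 20.8, 16.7 and 18.0 CPM in ATGLKO mice. The groups did not overlap, and the log2FC was 0.77 (SE 0.24, adjusted p = 0.0324). Hamp, the gene of hepcidin, the hormone that removes ferroportin from the membrane, had 0 counts in every mouse, which allows up to 1.53 CPM in the shallowest library.

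In cellular iron sensing, 1 of 8 genes tested was called, and it was lower (12.5%, against 7.63% of all genes tested). Aco1 encodes cytosolic aconitase, which becomes iron regulatory protein 1 when it loses its iron-sulfur cluster and then binds the hairpins shown for Fth1, Ftl1, Slc40a1 and Tfrc. It was at 39.8, 73.5, 37.7 and 41.0 CPM in WT and at 19.8, 20.2, 29.3 and 19.7 CPM in ATGLKO mice. WT mouse 2 was the highest and ATGLKO mouse 3 stood above the other ATGLKO mice, without overlap of the groups. The log2FC was -1.11 (SE 0.24, adjusted p = 0.00348), and -0.84 without WT mouse 2. For Ireb2, which encodes iron regulatory protein 2, the log2FC was -0.52 (adjusted p = 0.16).

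In heme breakdown and scavenging, 3 of 6 genes tested were higher (50%, against 13.3% of all genes tested) and 1 lower (16.7%, against 7.63%). Lrp1, the receptor of the complex of hemopexin and heme, had a log2FC of 0.94 (SE 0.18, adjusted p = 0.00162). Blvra and Blvrb encode biliverdin reductases A and B, which are different enzymes, and their mRNAs moved in opposite directions. Blvra rose from 37.6 ± 6.60 to 63.4 ± 3.16 CPM (n = 4 each, log2FC 0.75, SE 0.17, adjusted p = 0.00532). Blvrb fell from 45.8 ± 2.34 to 28.8 ± 5.89 CPM (n = 4 each, log2FC -0.67, SE 0.19, adjusted p = 0.018). Neither overlapped between genotypes. Slc48a1, which carries heme out of the phagolysosome, had a log2FC of 0.59 (SE 0.17, adjusted p = 0.0213).

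In heme synthesis, 1 of 11 genes tested was higher and 1 lower (9.09% each, against 13.3% and 7.63% of all genes tested). Alas1, the rate-limiting enzyme of the pathway outside red cells, had a log2FC of 0.59 (SE 0.20, adjusted p = 0.0427) and overlapping groups. In heme transport, 1 of 6 genes tested was higher and 1 lower (16.7% each, against 13.3% and 7.63%). Abcg2, an exporter of porphyrins among other substrates, was higher (log2FC 1.13, SE 0.30, adjusted p = 0.0125). Pgrmc1, a heme-binding membrane protein, was lower (log2FC -1.11, SE 0.25, adjusted p = 0.00488).

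In mitochondrial iron import and iron-sulfur cluster assembly, 0 of 19 genes tested were higher and 4 were lower (21.1%, against 7.63% of all genes tested), with a median log2FC of -0.25. The number lower was 0 without ATGLKO mouse 4, 1 without WT mouse 3 or ATGLKO mouse 2, 2 without WT mouse 1 or 2 or ATGLKO mouse 3, and 5 without WT mouse 4, and scaling by total counts alone gave 1. Lyrm4, a subunit of the cysteine desulfurase complex that supplies sulfur, had a log2FC of -0.77 (SE 0.21, adjusted p = 0.015). Bola3 (-0.59, adjusted p = 0.0218), Isca2 (-0.50, adjusted p = 0.0435) and Nfu1 (-0.55, adjusted p = 0.0454), which act late in the delivery of clusters, had smaller changes. In all 4 genes every ATGLKO mouse was below every WT mouse, as in 9.37% of all genes tested. Some genes of this list that were not called were also lower without overlap, and another was higher without overlap. Of the brown adipocyte markers, 4 of 9 were also called lower, with a median log2FC of -0.44 over the 9, and their part in these values was not tested.

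Of the 16 genes called in the wider lists, 5 were called in all 8 fits that left out 1 mouse, among them Aco1, Blvra, Lrp1 and Pgrmc1. Blvrb, Abcg2 and Lyrm4 were called in 7 of 8, Steap3 in 6, Hfe and Slc48a1 in 5, Bola3 in 4, and Steap4, Alas1, Isca2 and Nfu1 in 2. The counts of the wider lists therefore depend on single mice more than the calls of Ftl1, Slc40a1, Cp and Hmox1, which held in all 8.

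Genes whose pattern over the 8 mice was most like that of Cp and Ftl1, the genes with the smallest adjusted p, were taken as those with the smallest root mean square difference of centred log2 CPM among all genes tested. For Cp they were Crlf2 (0.128), Ddr2 (0.165) and Prss23 (0.178). For Ftl1 they included Limd2 (0.163) and Ptpn18 (0.182). The 5 genes named were all higher in ATGLKO, with log2FC from 1.43 for Ptpn18 to 1.97 for Crlf2, and since all genes of a like difference between genotypes score well on this measure it says little about the mice within a genotype.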

How the data were processed

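BAT mRNA of 8 mice was measured as single-end digital mRNA-seq, 1 library per mouse. According to the paper's methods the authors used bbduk for trimming, STAR for alignment (mm10) and HTseq-counts for counting. The deposited counts are raw whole numbers for each Ensembl gene. The submitters' processing notes instead name Trimmomatic, HISAT2 and DESeq2, with GRCm38 and mm10. The strand setting and annotation release are not given in the sources used here. The deposited log2 values are, for each gene, the log2 of the count times 1 factor per mouse plus 1, and served 1 alternative. Loss of reads shared between gene copies could not be examined.

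Analyses were run in R 4.3.3. Genes passing filterByExpr (minimum count 10) were scaled by TMM and tested on genotype with edgeR 4.0.16 (quasi-likelihood), with Benjamini-Hochberg adjustment over all 8930 genes and a threshold of 0.05. CPM were taken after TMM scaling, with a prior count of 2 on the log2 scale. Single values per mouse were compared by two-sided exact permutation tests, with 0.5 added to counts in ratios. Intervals on summed counts cover counting error only. Alternatives, among them DESeq2 1.42.0 and limma 3.58.1, are given in the closing section. The edgeR script was tested on simulated data. Symbols and positions came from GENCODE M21 (GRCm38), which named 30934 of 31053 identifiers. Transcripts are from the same build.

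The 10 genes, the wider lists and the marker lists were chosen with earlier results of these data known. Named were Pnpla2, the 10 genes, in each wider list up to 4 genes with the smallest adjusted p under 0.05 and up to 2 in the other direction, or its most abundant gene where none passed, up to 4 called markers per cell type, and the 3 genes most like each of the 2 members with the smallest adjusted p. Ireb2, Ncoa4, Hamp, Ucp1, Fabp4, Gm5475, Hps3 and Ftl1-ps1 were added after their values or positions were seen. Some genes that the rule names are not reported here. The labels do not say that mice of a genotype came from separate litters, and p-values measure the spread between these mice. No pair of libraries of a genotype was alike within counting noise (chi-square 4.69 to 23.2 times its expectation). Of all counts, 38.4 to 45.6% per library came from mitochondrially encoded genes.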

Additional observations from a re-analysis of the deposited data

Results flagged for a closer look

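The gap between the most extreme mouse and its nearest neighbour, as a share of the range of its genotype, was tested against Dixon's 95% critical value for 4 values in 130 groups of 4 mice. It was exceeded in 5, where chance alone gives about 6.5. ATGLKO mouse 3 was low for Hmox1 (share 0.862, log2 CPM 2.90 against 4.36 to 4.59 in the other ATGLKO mice) and for Cp (0.834, log2 CPM 6.22 against 6.91 to 7.05). The same mouse was high for Aco1 (0.939, log2 CPM 4.91 against 4.36 to 4.39). WT mouse 2 was high for Aco1 (0.875, log2 CPM 6.21 against 5.27 to 5.39). WT mouse 4 was high for Ddr2, the gene with the second closest pattern to Cp (0.887, log2 CPM 4.53 against 3.89 to 3.96).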

How the results depend on the processing

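Under 10 other settings, 1 of which (without the mouse of each genotype with most skeletal muscle transcripts) was chosen after seeing the data, Ftl1, Slc40a1 and Cp stayed called and higher. Hmox1 stayed called in the 9 that kept it and had too few counts where at least 10 in every mouse were asked for. No main result changed direction. Hp passed the threshold with DESeq2's Wald test (log2FC -0.623, adjusted p 0.0421) and with at least 1 count in any mouse (-0.617, adjusted p 0.0199), where 1 of the 10 genes was thus called lower, and ranged over adjusted p 0.0199 to 0.187. Cd163 passed with total counts only (1.03), limma voom (1.09), at least 1 count (0.856) and at least 10 counts in every mouse (0.967), with adjusted p from 0.0271 to 0.288 over all settings. DESeq2's Wald test and asking for at least 1 count in any mouse lowered adjusted p for other genes as well, as given for Cp. Passing in those settings is therefore weaker support. Over all genes, at least 10 counts in every mouse gave 746 higher and 449 lower (fewer genes tested) and 7 markers higher, total counts only gave 404 lower, and the fit without the muscle-rich mice gave 279 lower (fewer mice). The wider lists gave 4 lower with total counts only, and 3 higher and 3 lower without the muscle-rich mice. Where not stated, the cause was not tested.

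The labels do not say that replicate numbers pair the mice. Deviations of same-numbered mice correlated at -0.0873, -0.196, 0.304 and 0.241, and 1 of 4 WT mice correlated best with its own number. So few values cannot exclude a pairing. With the replicate number as a block, 1138 genes were higher and 581 lower, and Cd163 passed (0.846, adjusted p 0.0459).

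Leaving out each mouse in turn gave log2FC of -0.77 to -0.335 for Hp and 0.667 to 1.08 for Cd163, 400 (without ATGLKO mouse 2) to 851 genes lower, and 4 to 6 of the 10 genes higher and 0 to 1 lower (1 without WT mouse 4). The fits with 5 or 6 were those in which Slc11a1 entered the test, through the ATGLKO mice in which it was abundant. The wider lists gave 4 (without WT mouse 1) to 7 higher and 3 (without ATGLKO mouse 4) to 13 (without WT mouse 4) lower, with 5 higher without WT mouse 3 or ATGLKO mouse 1, 3 or 4, and 5 lower without WT mouse 3 or ATGLKO mouse 2. At this depth genes under about 10 counts per mouse, such as Slc11a1 in WT, give wide intervals.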
